A study of Mus musculus with 4 samples.

Results

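The cells described here are Csf1r-positive cells, taken as macrophages, that carried transcripts of both Chil3 and Ear2. They numbered 59 of 44184 kept barcodes. They came from tumours of MC38, a murine colon cancer line, carried by wild-type (WT) or knockout (KO) mice, with 2 single-cell libraries of each genotype made from infiltrating cells enriched with CD45 beads. The sources used here do not give the strain, age or number of mice per library or any pooling of tumours. Each p-value below therefore measures only how these libraries vary, which may be technical. A barcode was a member with at least 1 UMI (a counted transcript molecule) of Csf1r, 5 of Chil3 and 2 of Ear2. A member also had under 3 UMIs of Cxcl9 and of Inhba, under 2 of C3, of Fcrls and of Mmp13, none of Lyve1, Cd209f or the Cd3 genes, and not both Mki67 and Top2a. The values of these genes chose the cells, so they are given below as a description, without a test.

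Macrophages of a growing tumour are replaced in large part by Ly6C-high monocytes, which enter from the blood through the chemokine receptor Ccr2 and then lose Ly6c2 and Plac8 as they mature. Chil3 encodes Ym1, a secreted chitinase-like protein made by monocytes and by macrophages under type 2 signals, and Ear2 encodes an eosinophil-associated ribonuclease that blood monocytes, lung macrophages and eosinophils also make. Fn1 encodes fibronectin, a matrix protein abundant in newly recruited macrophages.

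Chil3 lies on chr3:106147554-106167564 (minus strand) and Ear2 on chr14:44102654-44103534 (plus strand) of GENCODE's mm10 annotation, and both are protein-coding. The 250 bases before each start site are shown because these transcripts define the cells (RefSeq, GRCm38.p6, read 5′ to 3′ on the gene's strand, chr3:106167565-106167814 and chr14:44102404-44102653).
Chil3: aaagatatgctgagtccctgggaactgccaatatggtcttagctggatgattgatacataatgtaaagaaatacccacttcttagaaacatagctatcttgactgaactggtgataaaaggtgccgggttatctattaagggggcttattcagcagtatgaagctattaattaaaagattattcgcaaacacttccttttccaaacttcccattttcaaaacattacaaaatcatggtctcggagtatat
Ear2: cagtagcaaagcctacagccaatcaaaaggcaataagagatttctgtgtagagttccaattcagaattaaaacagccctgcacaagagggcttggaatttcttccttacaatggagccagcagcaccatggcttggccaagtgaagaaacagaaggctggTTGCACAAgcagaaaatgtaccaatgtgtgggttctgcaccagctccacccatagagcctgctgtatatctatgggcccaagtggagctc
The capitals mark a match to TTGCNNAA, the letters searched for C/EBP factors, which began 90 bases before the Ear2 start site. Windows of 300 bases, which reached 50 bases past the start, were searched on both strands for this motif, for GAGGAA (PU.1) and for the STAT6 motif. The Chil3 window held none of the 3 and the Ear2 window only the match shown. Of 32851 such windows in the table, 10.8% held TTGCNNAA, 28.3% GAGGAA and 6.95% the STAT6 motif. Both genes have closely similar paralogs, Chil4 and Ear1, which had no UMI in these cells, and reads that match such copies make the counts uncertain.

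The members were spread very unevenly: 49 came from WT 1, 4 from WT 2, 5 from KO 1 and 1 from KO 2. As a share of kept barcodes they made up 0.566% of WT 1 (exact 95% interval 0.419 to 0.747), 0.0454% of WT 2 (0.0124 to 0.116), 0.0291% of KO 1 (0.00944 to 0.0678) and 0.0105% of KO 2 (0.000267 to 0.0586). These intervals cover counting error only. The interval of WT 1 stood apart from the other 3, while that of WT 2 overlapped both KO libraries. The WT mean was 0.305 ± 0.368% and the KO mean 0.0198 ± 0.0131% (SD, n = 2 libraries each), a log2 ratio of -3.95 that became -1.20 without WT 1. The data therefore go against calling these cells common in wild type as a statement on the genotype: they were scarce in every library, and 1 WT library held most of them. No test was made of a share for which the cells were chosen, and with 2 libraries a side the smallest p that an exact permutation can give is 0.333.

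**Figure D1:**
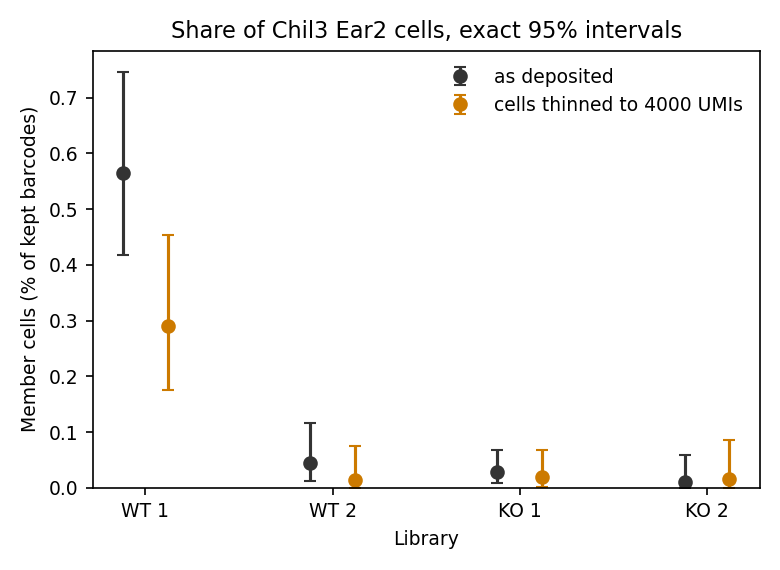
The y axis gives the share of kept barcodes that met the rule, in percent, for each library, with exact 95% binomial intervals, and the orange points give it after each cell was thinned to 4000 UMIs. WT 1 stands above the other 3 libraries in both, at 0.566% and 0.291%, and WT 2 lies within the range of the KO intervals.

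The gap between WT 1 and the rest was already present in the Chil3 step and widened in the Ear2 step. Of Csf1r-positive barcodes, 608 of 6578 in WT 1 had at least 5 UMIs of Chil3, against 224 of 7028 in WT 2, 257 of 11510 in KO 1 and 342 of 6407 in KO 2. Of those, 95, 15, 12 and 8 also had at least 2 UMIs of Ear2. The remaining limits then left the 49, 4, 5 and 1 members. At the edge of the rule, 7 members of WT 1 and 4 of KO 1 had 5 to 9 UMIs of Chil3, and 21, 1, 8 and 8 barcodes met every other criterion with 1 to 4. A further 80, 64, 18 and 24 barcodes met every other criterion, Ear2 included, with no Chil3 UMI. The larger pool lay outside the Ear2 limit: 213, 89, 58 and 58 barcodes met every other criterion with no Ear2 UMI, and 20, 3, 4 and 7 with 1.

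Both WT libraries were deeper per cell than the KO libraries, and the deepest, WT 2, was not the one rich in members. Kept barcodes had medians of 9905.5 and 12133 UMIs in WT and 6052 and 8308 in KO, and members had medians of 13450 (3454 to 29158) in WT 1, 13833.5 (11324 to 14777) in WT 2 and 4261 (1928 to 14651) in KO 1, with 4877 in the KO 2 cell. WT members were thus deeper, and most KO members shallower, than the other Csf1r-positive cells of their library, whose medians were 10875, 12394, 8337 and 11670. Thinned to 4000 UMIs per cell, with 2125, 1476, 6482 and 2971 shallower barcodes left out, 19, 1, 2 and 1 members remained, and WT 1 kept the highest share at 0.291%. Free RNA was read from T cells, taken as barcodes with at least 2 UMIs of Cd3 genes and no Csf1r. At least 5 UMIs of Chil3 were found in 0 of 206, 1 of 315, 2 of 1576 and 0 of 749 of them (medians of 2932, 3133, 2859 and 3246 UMIs), where 0 cells allow shares up to 1.77% and 0.491% by the exact interval. Among Csf1r-positive cells the same level was reached by 8.80%, 3.13%, 2.35% and 5.51%. A single Chil3 UMI or more was found in 5.83%, 1.27%, 1.14% and 1.74% of T cells. Stray Chil3 was thus most frequent in WT 1, whose exact interval (3.05 to 9.95%) overlapped only that of WT 2 (up to 3.22%). Among Csf1r-positive cells this lower level was reached by 10.6% (KO 1) to 24.2% (WT 1). The part of free Chil3 RNA in the WT 1 count of members was not tested. At least 2 UMIs of Ear2 were found in 1 of 206, 0 of 315, 0 of 1576 and 0 of 749 T cells. In WT 1 this was 0.485%, with an exact interval up to 2.67%. Among Csf1r-positive cells that level of Ear2 was reached by 4.38%, 2.37%, 0.723% and 1.37%. The libraries shared 203 barcode sequences in pairs, and none was that of a member.

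Within the rule, Chil3 ranged from 5 to 481 UMIs per cell. The 49 members of WT 1 held a median of 71 Chil3 UMIs (5 to 481) and 7 of Ear2 (2 to 20), and the 4 of WT 2 held medians of 125 (66 to 184) and 7.5 (6 to 13). The 5 cells of KO 1 held 5, 6, 7, 7 and 115 UMIs of Chil3 and 2 or 3 of Ear2, and the KO 2 cell held 13 and 4. Of the 6 KO cells, 4 were thus within 2 UMIs of the Chil3 limit, whereas 42 of 49 members of WT 1 had 10 or more UMIs.

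**Figure D2:**
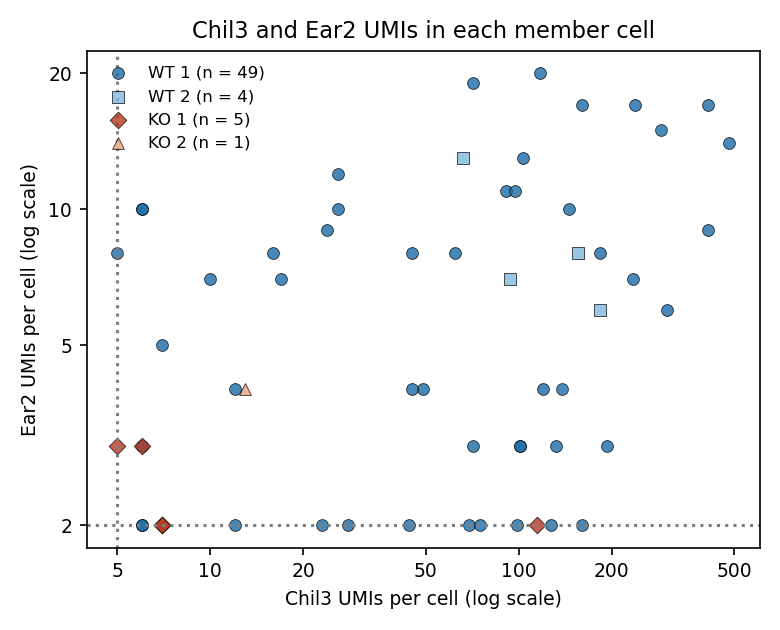
Each point is 1 member cell, with its Chil3 UMIs on the x axis and its Ear2 UMIs on the y axis, both on log scales, and dotted lines at the limits of the rule (5 and 2 UMIs). The WT 1 cells reach 481 UMIs of Chil3 and 20 of Ear2, the 4 WT 2 cells lie between 66 and 184 Chil3 UMIs, and 4 of 5 KO 1 cells sit at 5 to 7.

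The other 2 genes given as markers of these cells, Fn1 and Ccr2, were not used by the rule. Every WT member had UMIs of both. Fn1 had a median of 91 UMIs in WT 1 (9 to 255) and 70.5 in WT 2 (54 to 93), and Ccr2 medians of 9 (1 to 27) and 10.5 (3 to 12). In KO 1 the 5 cells had 0, 0, 1, 3 and 30 UMIs of Fn1, and only 1 had any Ccr2, with 11, while the KO 2 cell had none of Fn1 and 5 of Ccr2. The marker pattern therefore held in all 53 WT members, 49 of them from WT 1. It was incomplete in the 6 KO members, 5 of them from KO 1, of which 3 had an Fn1 UMI and 2 a Ccr2 UMI. The KO members were mostly shallower.

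Summed over the members of a library and expressed per 1e6 UMIs (CPM), Fn1 stood at 7518 in WT 1 and 5356 in WT 2, against 4089 and 2551 in the other Csf1r-positive cells of those libraries (no Cd3 transcript, not cycling). In KO 1 it was 1177 against 1725. Ccr2 was at 723 and 670 CPM in WT members against 568 and 434 in the other Csf1r-positive cells. In WT, barcodes that met every other criterion with 0 or 1 UMI of Ear2 had Fn1 at 6299 and 4178 CPM. Their Ccr2 was at 888 and 905 CPM, above the members. High Fn1 and Ccr2 in WT were thus not particular to the members. One UMI equals 1.58 CPM in the members of WT 1, 18.6 in WT 2, 34.6 in KO 1 and 205 in the single cell of KO 2, so the KO levels below rest on few molecules. Because members were picked by their own transcripts, levels against other cells are described without a test. Among 910 genes with at least 50 CPM in the members of every library, 168 were higher than in the other Csf1r-positive cells in all 4 and 55 were lower in all 4. Any gene detected in the KO 2 cell is at 205 CPM or more, so this minimum itself favours higher genes there.

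Hopx, a homeodomain protein that binds no DNA itself, led the higher genes. It stood at 336, 279, 208 and 205 CPM in the members of WT 1, WT 2, KO 1 and KO 2, against 103, 69.8, 33.4 and 39.8 in the other cells, and 50 of 59 members had a UMI. Next came metabolic and detoxifying enzymes: Idh1, which makes NADPH in the cytosol (200, 149, 138 and 205 CPM against 93.9, 73.1, 56.4 and 61.2), the membrane-bound glutathione transferase Mgst1 (233, 335, 277 and 410 against 109, 93.6, 156 and 137) and Cpt1a, which admits fatty acids to mitochondria. Their smallest log2 ratios over the 4 libraries were 1.69 for Hopx, 1.01 for Idh1, 0.82 for Mgst1 and 0.81 for Cpt1a. Trem1, a receptor that amplifies inflammatory signals, was at 320, 167, 312 and 820 CPM against 137, 115, 114 and 124, and F10, the precursor of coagulation factor Xa, at 295, 260, 346 and 820 against 190, 165, 184 and 233. Barcodes that met every other criterion with 0 or 1 UMI of Ear2 had F10 at 269, 343, 301 and 329 CPM. Their Trem1 was at 197, 189, 144 and 138 CPM. Both genes were thus higher in these barcodes than in members in WT 2, and lower in the other libraries.

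In the WT libraries, which held 53 of the 59 cells, a wider set was shared. This restriction was chosen after the values were seen. Car4, a membrane-anchored carbonic anhydrase found on lung macrophages, was at 235 and 112 CPM in WT members against 21.8 and 2.1 in the other cells, with 16 of 49 members of WT 1 and 1 of 4 of WT 2 holding a UMI and 5 cells of WT 1 at 10 or more. Fpr1, a receptor for bacterial formyl peptides, was at 50.4 and 93.0 CPM against 10.7 and 13.7. F7, the coagulation factor that pairs with tissue factor, was at 200 and 205 CPM against 71.3 and 53.5, and Thbd, the anticoagulant receptor thrombomodulin, at 136 and 93.0 against 52.0 and 33.9. Also higher in both were the chemokine Cxcl14 (159 and 242 against 59.1 and 56.0 CPM), the triglyceride-forming Dgat1 (69.3 and 130 against 25.1 and 19.1), the iron carrier Trf (861 and 1190 against 360 and 279) and the arginine transporter Slc7a2 (471 and 670 against 233 and 159). Car4, Cxcl14 and Thbd had no UMI in any KO member, where 3 UMIs correspond to 104 CPM in KO 1 and 615 in KO 2, so lower levels were not detectable there.

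Genes of settled tissue macrophages were lower in the members than in the other Csf1r-positive cells. The rule itself leaves out cells by Fcrls, C3, Lyve1 and Cd209f, and the other cells include them. This comparison is therefore not independent of the rule. Pf4, a chemokine of platelets that macrophages also make, was at 238, 74.4, 242 and 205 CPM against 2087, 2365, 3742 and 2955 in the other cells. Its log2 ratio was -3.13 or lower in each library, the furthest of the 910 genes by this measure. C1qa, a chain of complement C1q, was at 938, 409, 381 and 205 CPM against 2126, 2749, 3227 and 2876, and the lysosomal protease Ctsl at 635, 260, 796 and 205 against 1221, 1274, 1717 and 1644. Of 15 tissue macrophage genes on the list, none was higher in the members of both WT libraries and 13 were lower in both. Of 14333 genes detected in both libraries, 15.9% were higher in both and 49.9% lower in both. Apoe, the lipid carrier, was at 1329 and 2808 CPM in WT members against 5384 and 6378, and the scavenger receptor Stab1 at 59.9 and 55.8 against 264 and 203. Barcodes that met every other criterion with 0 or 1 UMI of Ear2 had Pf4 at 654, 158, 1921 and 1272 CPM. In WT 1, WT 2, KO 1 and KO 2 they had C1qa at 1233, 1041, 755 and 1415 CPM and Apoe at 2412, 1473, 4335 and 1621.

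The remaining lists set the same 2 WT libraries side by side. Of 19 cholesterol synthesis genes 13 were higher in both and none was lower in both, with summed levels of 1775 and 1451 CPM in members against 954 and 985 in the other cells. Examples were Fdps, a synthase of the isoprenoid branch (232 and 149 against 107 and 120 CPM), and Cyp51, a sterol demethylase (140 and 205 against 64 and 69.4). The transcripts encoded in mitochondria were also higher, 11 of 13 in both libraries, at 30340 and 33198 CPM in all against 26136 and 25291. All 13 complement and Fc receptor genes were lower in both, as were 17 of 20 type I interferon genes and 14 of 19 interferon gamma genes, with 1 of the latter higher. The background for these counts depends on the level: of 14333 genes detected in both libraries 15.9% were higher in both and 49.9% lower in both, and of 2531 genes with at least 50 CPM in the other cells 29.4% and 31.8%. Many interferon genes are of the low kind, and 10 of the 20 type I genes had no UMI in the WT 2 members, where 1 UMI is 18.6 CPM. The rule also limits Cxcl9, C3 and Fcrls, which the other cells may carry, so these directions are not independent of it. Barcodes that met the rest of the rule with 0 or 1 UMI of Ear2 had interferon gamma sums of 595 and 788 CPM, beside 544 and 632 in members. Their type I sums were 529 and 900 beside 347 and 595, and their complement and Fc receptor sums 9301 and 8535 beside 7012 and 5170. Their cholesterol synthesis sums were 1250 and 1347 CPM, between those of the members and of the other Csf1r-positive cells. The higher cholesterol synthesis level was thus partly shared by these barcodes. Ccl8, a chemokine that attracts monocytes and T cells, was at 29.9 and 55.8 CPM in members against 1025 and 333, whereas Ccl6 was at 4095 and 4891 against 2149 and 1778. Arg1, the arginase of suppressive tumour macrophages, was abundant in members and other cells alike, at 7182 and 3106 CPM against 5403 and 3906. The 14 genes of the alternative activation list summed to 8311 and 3924 CPM in WT members against 7147 and 4921, mostly Arg1, with 11 and 8 of them detected. Of the 14, 1 was higher in both WT libraries and 6 were lower in both. The mannose receptor Mrc1 had a UMI in 45 of 49 members of WT 1 and all 4 of WT 2, at 522 and 409 CPM against 764 and 472. Retnla, Chil4 and Cd209a had no UMI in any member.

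Markers of other cell types were scarce. In WT 1, WT 2, KO 1 and KO 2, members held 1, 1, 6 and 1 UMIs of 14 T cell genes in all, 4, 0, 0 and 0 of 9 B cell genes, 88, 6, 8 and 1 of 11 neutrophil genes (mainly S100a8, with S100a9 at 0, 0, 0 and 1) and 4, 0, 0 and 0 of 7 eosinophil genes. The defining cytokeratins Krt8, Krt18 and Krt19 were at 0 in every library, and of the epithelial list only Cdh1, at 195 and 186 CPM in WT members and 84 and 45 in the other cells, and Epcam, with 2 UMIs, were found. Of the alveolar macrophage genes not used to choose the cells, Car4 was the most abundant (values above), Marco, Fabp1 and Krt79 were at 0 and Siglecf had 3 UMIs in all of the 59 cells, while Pparg had 13 in WT 1 and 3 in WT 2. Ptprc, the gene of CD45, was at 350, 353, 831 and 1640 CPM.

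**Figure D3:**
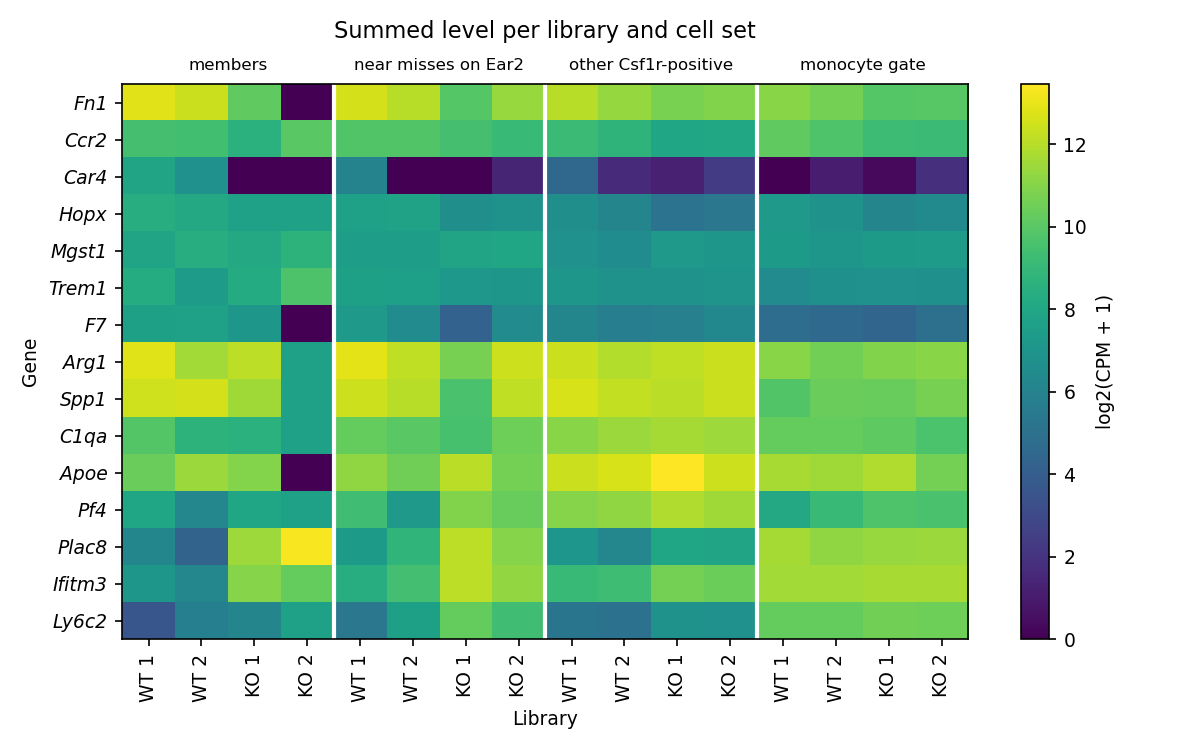
Colour gives log2(CPM + 1) of 15 genes summed over the cells of each library, in 4 sets of cells: members, near misses on Ear2 (0 or 1 UMI), other Csf1r-positive cells and a monocyte gate (Csf1r, at least 3 UMIs of Ly6c2 and 2 of Plac8). Pf4 and Apoe are darker in members than in the other Csf1r-positive cells, Plac8 is brighter in the KO than in the WT columns of members and near misses, and the KO 2 column of members is 1 barcode.

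The WT 1 members were not uniform. C1qa had 0 or 1 UMI in 27 of the 49, 2 to 9 in 5, and at least 10 in 17. Cells with at least 10 had median levels of 2586 CPM of C1qb, 6927 of Cd74, the chaperone of MHC class II, and 1542 of H2-Ab1, a class II chain, against 0, 98.2 and 152 in cells with 0 or 1. S100a8, a calcium-binding protein of immature myeloid cells, had medians of 0 and 86.4 CPM in the same order. The complement-rich cells thus also carried antigen presentation transcripts. Across the 49 cells, which share 1 library, Spearman's rho with C1qa was 0.82 for C1qb, 0.60 for Cd74, 0.53 for H2-Ab1, -0.43 for S100a8 and -0.12 for both Chil3 and Ear2. Car4 did not follow the high-C1qa cells, with a rho of -0.33.

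The KO effect within the members was tested on UMIs summed per library with edgeR's quasi-likelihood test and Benjamini-Hochberg adjustment, which rested on 49 and 4 WT cells and 5 and 1 KO cells. Of 618 genes that passed the filter on low counts, 2 rose and none fell in KO at an adjusted p under 0.05, which is 0.324% of those tested, and 57 had an unadjusted p under 0.05. The 2 genes passed the filter through the KO libraries, where they were high, so these calls are not independent of the filter. Plac8, a cysteine-rich protein abundant in Ly6C-high monocytes, was at 72.5 and 18.6 CPM in WT 1 and WT 2 and at 2873 and 10457 in KO 1 and KO 2. Its groups did not overlap, as was so for 42.9% of the genes tested. The WT mean was 45.5 ± 38.1 CPM and the KO mean 6665 ± 5363 CPM (SD over 2 libraries), and the fitted log2 change was 6.54 ± 0.86 (SE), with an adjusted p of 0.0414 in edgeR's test.

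Ifitm3, an interferon-induced protein that blocks viral entry, was at 137 and 74.4 CPM in WT and at 2077 and 1230 in KO. Its log2 change was 3.79 ± 0.51 (SE), with an adjusted p of 0.0414 in edgeR's test. It was also higher in the other Csf1r-positive cells of KO, at 565 and 618 CPM in WT and 1620 and 1380 in KO. Neither call held without WT 1 (edgeR adjusted p = 0.119 for Plac8 and 0.122 for Ifitm3) or without WT 2 (0.997 for both), and that of Ifitm3 was also lost without KO 1 (0.103). With no filter on low counts neither passed (0.0808 and 0.432). Plac8 was also lost after thinning (0.337) and Ifitm3 with the stricter gate of at least 10 UMIs of Chil3 and 4 of Ear2 (0.184). Both genes were low in WT members and passed the filter through the KO libraries. Genes next in rank did not pass: the chemokine Ccl3 was at 74.1 and 37.2 CPM in WT and 623 and 410 in KO (edgeR adjusted p = 0.108), and Trf at 861 and 1190 in WT and 138 and 0 in KO (0.168).

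The pathway lists gave no further call. Of the 7 classical monocyte genes tested Plac8 alone passed, 3 having a positive and 4 a negative change, and none passed among 8 MHC class I genes, 8 MHC class II genes, 7 tissue macrophage genes or 10 mitochondrially encoded genes. Fn1, at 7518 and 5356 CPM in WT and 1177 and 0 in KO, had an edgeR adjusted p of 0.235. The MHC class I genes, which carry peptides to CD8 T cells, had 6 positive and 2 negative changes. Their median log2 change was 0.74, against -0.13 over all 618 genes. The 16 genes of that list summed to 5411 and 6398 CPM in WT members and 8862 and 10457 in KO members. In the other Csf1r-positive cells they summed to 6905 and 7696 CPM in WT and 14407 and 12665 in KO. The higher KO level was thus not particular to the members. The dissociation and stress list, immediate early and heat shock genes that tissue handling can induce, had 10 positive and 2 negative changes among 12 tested, with a median of 0.68. It summed to 8309 and 5468 CPM in WT members and 14782 and 15993 in KO members, and to 9566, 8914, 11401 and 10386 in the other Csf1r-positive cells. All 10 mitochondrially encoded genes tested had negative changes, with a median of -0.64. No gene of the stress or the mitochondrially encoded list passed, and their part in the KO difference was not tested. B2m, the light chain shared by MHC class I molecules, was at 1407 and 2046 CPM in WT members and 3254 and 2050 in the KO members.

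Single cells show how the Plac8 difference was carried. In WT 1, 45 of 49 members had no Plac8 UMI, 3 had 1 or 2, and 1 had 42. In WT 2, 3 of 4 had none and 1 had 1. The KO 1 cells had 0, 1, 24, 25 and 33 UMIs and the KO 2 cell had 51, although these cells were shallower. At least 10 Plac8 UMIs were thus present in 1 of 49 members of WT 1, 0 of 4 of WT 2, 3 of 5 of KO 1 and the KO 2 cell. Cells of 1 library are not replicates of its genotype.

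Cells with much Plac8 had little Arg1. The 4 such KO cells had 1, 1, 1 and 7 UMIs of Arg1, and the WT 1 cell with 42 had none, while the median of WT 1 was 76. The 2 other KO 1 cells had 1 Plac8 UMI with 5 of Arg1 at a depth of 1928 UMIs, and no Plac8 with 116 of Arg1 and 78 of Spp1 at 14651 UMIs. This deepest KO cell shared the high Chil3 (115 UMIs) and Arg1 of WT members and had 30 UMIs of Fn1 and 5 of Hopx. It differed from them in having no UMI of Ccr2, which every WT member had, or of Mrc1, which 49 of 53 had. The members with much Plac8 did not carry Ly6c2 in proportion: they had at most 2 UMIs of it, so none met the monocyte gate. Ace, angiotensin-converting enzyme and a gene of the patrolling monocyte list, had a UMI in 5 of 49 members of WT 1, 0 of 4 of WT 2, 2 of 5 of KO 1 and the KO 2 cell. Of the same list, Pou2f2 had one in 7, 1, 2 and 0 cells in the same order. Treml4 and Spn each had one in 1, 0, 1 and 0 cells, Eno3 in 1, 0, 0 and 0, and Cd300e in none.

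**Figure D4:**
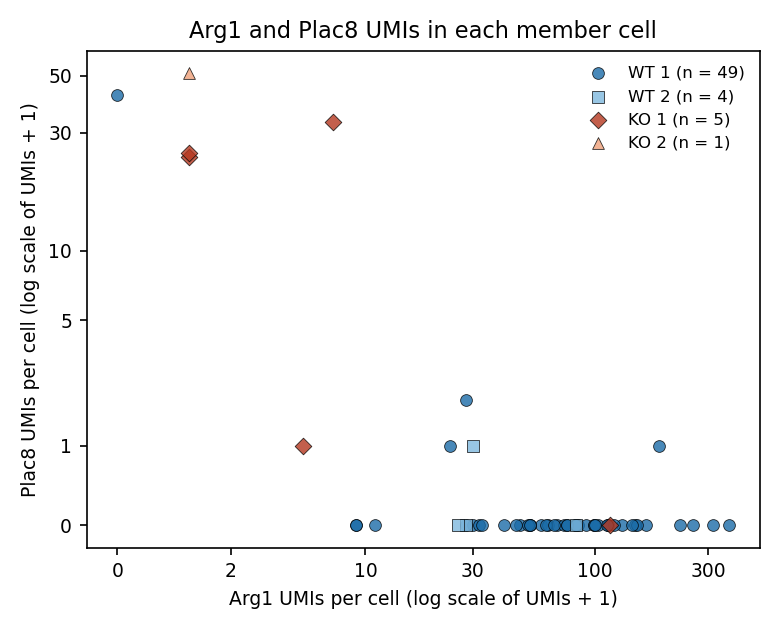
Each point is 1 member cell, with Arg1 UMIs on the x axis and Plac8 UMIs on the y axis, both on a log scale of UMIs + 1. The WT cells lie along the bottom, apart from 1 WT 1 cell with 42 Plac8 UMIs and no Arg1, and 4 KO cells lie at 24 to 51 Plac8 UMIs with 7 or fewer of Arg1.

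Cells that met the whole rule but for Ear2, with 0 or 1 UMI in its place, were more numerous and are given for comparison, as a set chosen after the values were seen. There were 233, 92, 62 and 65. At least 10 Plac8 UMIs were present in 14, 15, 45 and 34 of them, and at least 10 Arg1 UMIs in 216, 68, 6 and 29. Plac8 summed to 158 and 451 CPM in WT and 4488 and 2042 in KO, beside 3171, 2359, 2718 and 2779 in the monocyte gate. The KO near misses therefore also held more Plac8 than the WT ones, and they carried Ly6c2 as well, at 39.8 and 202 CPM in WT and 1224 and 652 in KO. Car4 was at 64.5, 0, 0 and 1.7 CPM in the near misses, and Hopx at 205, 217, 105 and 116. Whether the KO cells that met the rule differ from WT members in state or are another cell type that the rule also admits was not tested.

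The KO change in the members was set against that in the other Csf1r-positive cells. It was tested as an interaction of genotype and cell set, with the library as a block. In the other Csf1r-positive cells Plac8 was at 134 and 73.4 CPM in WT and at 245 and 235 in KO. These cells include the near misses, which also held more Plac8 in KO (158 and 451 CPM in WT, 4488 and 2042 in KO). The test therefore cannot show whether the Plac8 difference was particular to the members. Of 11895 genes tested, only Plac8 passed (0.00841% of those tested), with its KO change larger in members by 4.54 ± 0.83 log2 units (SE; edgeR adjusted p = 0.000479), and 283 had an unadjusted p under 0.05. The call was lost without WT 1 or without WT 2 (edgeR adjusted p = 1.0 in both). Vcan, a matrix proteoglycan of monocytes, was next at 2.78 ± 0.70 (0.380) and rested on the 12 UMIs of the KO 2 cell.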

How the data were processed

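Single-cell libraries of 2 WT and 2 KO samples held 9239, 9369, 18324 and 10344 barcodes with 94213071, 112472244, 130466357 and 104900918 UMIs. The authors deposited raw UMI counts, whole numbers for each gene in each barcode. Cell Ranger was used on mm10, in version 5.0.0 per the file headers and 5.0.1 in the submitters' processing notes. Those notes also name Seurat 3.15 without its role. Tumours were digested with enzymes per the labels' protocols, which can induce stress genes.

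The rule was applied to raw counts of the barcodes with 200 genes or more and no more than 20% mitochondrial UMIs (8664, 8815, 17207 and 9498). Free RNA was not removed and no doublet caller was run. In its place, an alternative left out members above the 90th percentile of UMIs of their library. Cells are not replicates, so counts were summed per library. Tests used edgeR 4.0.16 under R 4.3.3 (filterByExpr, minimum count of 10, TMM, robust quasi-likelihood test, two-sided, adjusted over all genes tested). CPM is per 1e6 UMIs of the summed cells, and log2 ratios between cell sets used CPM + 1. Intervals are exact binomial (Clopper-Pearson). DESeq2 1.42.0, other scalings, filters and gates, thinning and leaving out libraries were alternatives. The tests were checked on simulated counts with the same spread for every gene. Sums of few cells of mixed state can vary otherwise, so that check does not show how the tests behave here.

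The members and the 32 gene lists were chosen with earlier results of these data known. Named genes were those called with groups that do not overlap and a mean of at least 20 CPM (up to 15 each way), genes of the lists, up to 15 genes each way by smallest log2 ratio against other cells among those at 50 CPM or more, the top 10 of the interaction and the rule's genes. The examples taken from these, and Ccl3 and Trf among genes not called, were picked after their values were seen. The knocked-out gene is not reported here.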

Additional observations from a re-analysis of the deposited data

Results flagged for a closer look

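Plac8 differed between KO and WT by more in the Chil3 Ear2 cells than in the other Csf1r-positive cells of the same libraries. The change was larger in the former by 4.54 log2 units in the interaction test of edgeR's quasi-likelihood model, with an adjusted p of 0.000479, and no other of the 11895 genes passed in that fit. The call was lost without WT 1 or without WT 2 (edgeR adjusted p = 1.0 in both), and 2 genes passed with total counts and 15 without KO 1. The call rests on 6 KO cells, of which 4 held at least 10 Plac8 UMIs, and on 53 WT cells, of which 1 did. Of these cells 49 came from WT 1 and 5 from KO 1. The near misses on Ear2, which are counted among the other cells in this test, also held more Plac8 in KO, at 4488 and 2042 CPM against 158 and 451 in WT.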

How the results depend on the processing

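The log2 ratio of the KO over the WT share stayed below 0 under all 10 alternatives, from -5.13 with a stricter gate to -1.20 without WT 1, and from -4.86 to -1.20 over the libraries left out in turn. The stricter gate (at least 10 UMIs of Chil3 and 4 of Ear2) kept 28, 4, 0 and 1 cells and the looser one (3 and 1) 76, 7, 12 and 13, at a log2 ratio of -2.21. The 2 calls of KO against WT became 5 with DESeq2 (4 higher), 1 with no filter on low counts, 48 with the looser gate (41 higher), 18 without the deepest members (10 higher) and 0 of 123 tested after thinning (16 at an unadjusted p under 0.05). They became 144 with the stricter gate (11 higher), where KO 1 had no cell. Leaving out 1 library at a time gave 0 to 250 calls: 0 without WT 1, 1 without WT 2, 250 without KO 1 (17 higher) and 50 without KO 2 (28 higher), where the lone library of a genotype is assumed to vary like the other pair. With replicate number as a block there were 19 calls (17 higher). The labels do not say that a number is shared, and deviations of WT 1 and KO 1 correlated at 0.13 over 618 genes. The interaction gave 2 calls with total counts in place of TMM, and 0 to 15 over the libraries left out. Plac8 and Ifitm3 kept a positive change wherever they were tested. The cause of these shifts was not tested, and the depth of 1 to 5 cells per KO library limits every KO level.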
